A study of Mus musculus with 19 samples.

Results

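Wild-type granulocyte-monocyte progenitors (GMP) were set against wild-type common myeloid progenitors (CMP), the step between these stages in unperturbed bone marrow. The samples were chosen by their titles: 4 arrays of wild-type GMP and 3 arrays of wild-type CMP, 7 of the 19 samples of the series, and all 15781 genes with a measured value were compared. The mice were of the C57Bl/6J strain and carried no engineered allele per the labels, which give no age or treatment. The same step was also measured in Dnmt3a-/- mice of that strain (3 GMP and 3 CMP arrays), which by genotype lack a DNA methyltransferase. These arrays were set beside the wild-type values and also entered the fit that estimated the spread of each gene. The other 6 arrays, GMP of the genotypes PR+/- (2) and PR+/-, Dnmt3a-/- (4), entered only 1 alternative fit. The labels give the tissue as whole bone marrow and do not name the antibodies of the sort. Nor do they say whether each array stands for its own animal, and p-values therefore cover the spread among these samples, which may be technical.

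Common myeloid progenitors are bone marrow cells that can still give rise to red cells, platelets, granulocytes and monocytes. Granulocyte-monocyte progenitors stand further along and give rise mainly to neutrophils, monocytes and related cells, with the erythroid and megakaryocytic fates set aside. The transcription factors PU.1 and the C/EBP family are known for driving the granulocyte and monocyte programme, and GATA1 with its partner FOG1 for the erythroid and megakaryocytic one. Both populations are mixtures: cells already on the way to basophils, eosinophils, dendritic cells or red cells can fall inside the same sort gates. In RNA from such bulk samples, fewer cells of a type and less RNA per cell cannot be told apart.

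Levels are given as the mean log2 intensity over the probe sets of a gene, so that a difference of 1 is a 2-fold difference, and each difference is GMP minus CMP. The middle gene in the ranking by level stood at 5.37, and the median of the germline genes, 3.58, was taken as background. A gene was called where its limma adjusted p was below 0.05. Of 15781 genes, 678 were called (4.3%), 295 higher (1.87%) and 383 lower in GMP (2.43%), while 2565 had an unadjusted p below 0.05. Counts of called genes in the lists below stand against these shares, and 1 call in a short list says little about that list. With each array centred on its median the split was 375 higher and 312 lower, and the median change of all genes was 0.08 in that setting and 0.04 as deposited. Among the called genes 104 were higher and 182 lower by more than 2-fold, and 15 were higher and 37 lower by more than 4-fold. The GMP and CMP arrays did not overlap for 671 of the 678 called genes, against 13.9% of all genes (7.2% with GMP above and 6.65% with GMP below).

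The wild-type arrays fell into separate runs of title numbers. GMP replicates 1 and 2 and CMP replicate 1 carry 21986, 21988 and 21987, and the other 4 carry 22003 to 22012. The list of immediate early genes and chaperones, known to change as cells are handled, averaged 7.43, 7.52, 6.26 and 6.24 in GMP replicates 1 to 4 and 8.45, 6.38 and 6.43 in CMP replicates 1 to 3. The Y-linked genes were low in GMP replicate 4 and CMP replicate 3 (mean level 3.25 and 3.06, against 6.84 to 7.25 in the other 5 arrays). Whether a run of numbers marks a preparation is not given in the labels. All 678 called genes had the same sign of change within the numbers 21986 to 21988 and within 22003 to 22012, which the calls over all 7 arrays partly fix. Across all genes the changes in both runs correlated with r = 0.47, a description over genes, which are not independent and share these libraries. Without CMP replicate 1 the count of called genes was 354, and with the 7 wild-type arrays alone, which leave fewer arrays to estimate the spread, it was 258. In that last fit 33 of the 75 called genes named by rule had an adjusted p of 0.05 to 0.162: Alad, Alas1, Cd22, Cd59a, Dnmt3b, Ear6, Fcgr2b, Fcgr3, Gbp3, Gfi1, Gp5, H2-Aa, Hoxa9, Hsp90aa1, Il17ra, Il7r, Kel, Kit, Klrd1, Ly6c2, Olr1, Pdia4, Pf4, Plek, Rab27b, Rpn1, Sdf2l1, Serpinb1a, Slc14a1, Spcs2, Spi1, Srgn and Tal1.

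Genes of the sort gates bore out the labels in part. Fcgr3 and Fcgr2b, the low-affinity Fc receptors by which GMP are told from CMP, were both called higher in GMP. Fcgr3 had levels of 8.86, 8.95, 9.69 and 9.47 in GMP, against 5.72, 7.80 and 7.79 in CMP. All 4 GMP arrays lay above the 3 CMP arrays, and the difference was 2.14 ± 0.45 (SE; 4.41-fold, adjusted p = 0.0165). That call was lost without GMP replicate 3 (adjusted p = 0.0503) and with the 7 wild-type arrays alone (adjusted p = 0.0693). Fcgr2b rose by 0.91 ± 0.22 (adjusted p = 0.0344), with a call lost in 6 of 13 fits that left out 1 array (adjusted p from 0.0206 to 0.135). The stem cell factor receptor Kit had levels of 9.01 to 9.24 in GMP and 9.73 to 9.90 in CMP and fell by 0.63 ± 0.11 (adjusted p = 0.00468, and 0.0582 with the 7 wild-type arrays alone). Cd34, a sialomucin carried by both populations, was not called, at 9.81 ± 0.17 in GMP and 10.30 ± 0.05 in CMP (SD, n = 4 and 3; difference -0.49 ± 0.16, adjusted p = 0.136). Ly6a, the stem cell antigen that both gates leave out, averaged 3.63 in GMP and 4.13 in CMP, near background, and was not called. 3 stem or lymphoid surface genes of the list fell: Il7r by 1.90 ± 0.48, the endoglin gene Eng by 0.92 ± 0.15, and Slamf1, which lay under background in GMP and was at least 2.15-fold lower there. Of the 10 gate genes 2 were higher, 4 lower and 4 not called.

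**Figure D1:**
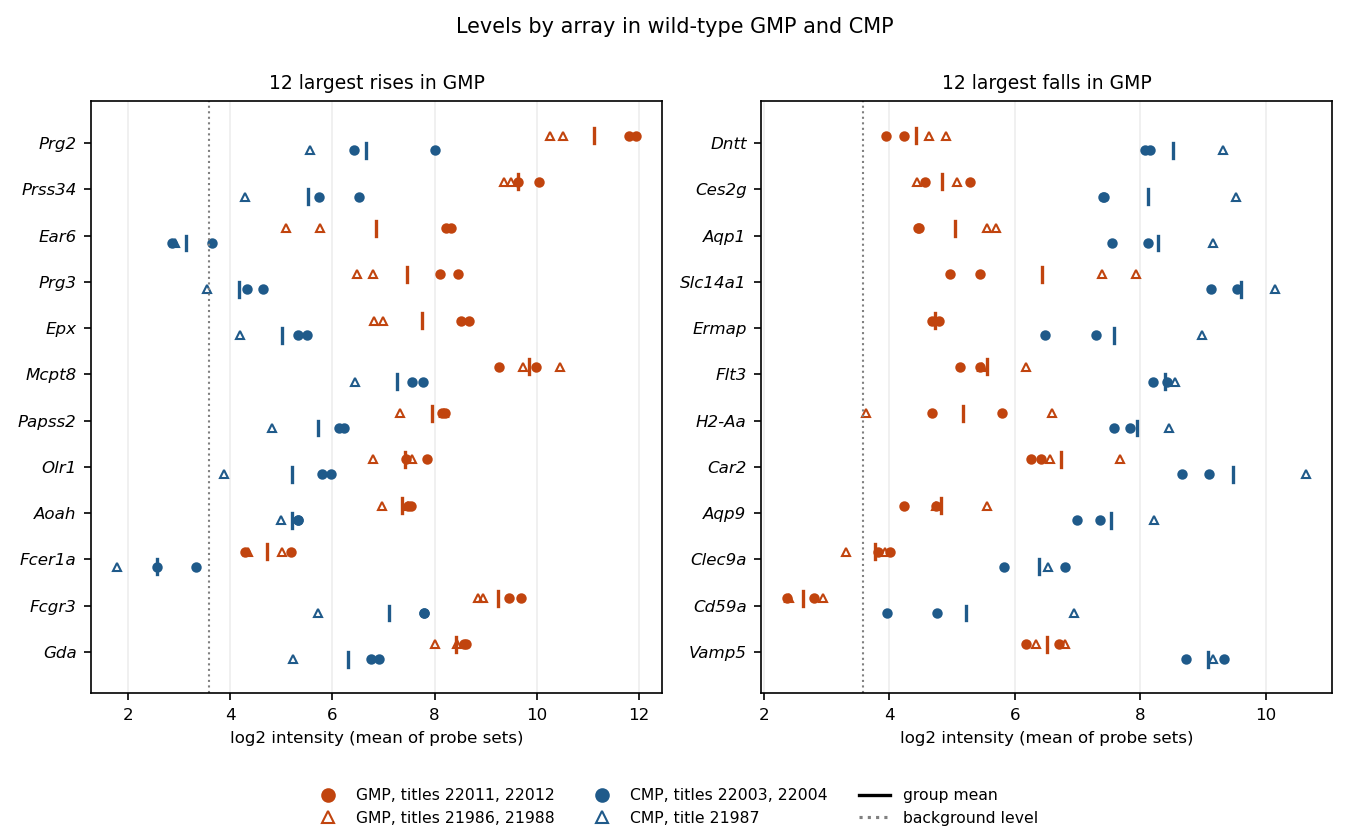
Levels (log2 intensity, x axis) of the 12 largest rises and the 12 largest falls in GMP, by gene on the y axis, with 1 symbol per array (triangles for titles 21986 to 21988, circles for 22003 to 22012), bars for group means and a dotted line for the background of 3.58. Prg2, the largest rise, lay between 10.26 and 11.95 in GMP and between 5.56 and 8.01 in CMP, and Dntt, the largest fall, between 3.94 and 4.91 in GMP and between 8.08 and 9.32 in CMP.

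Eosinophil granule genes led the rises. Prg2, the major basic protein of the eosinophil granule, had levels of 10.51, 10.26, 11.81 and 11.95 in GMP, against 5.56, 8.01 and 6.42 in CMP. The difference was 4.47 ± 0.70 (22.2-fold, adjusted p = 0.00271), and the arrays were far apart. Its paralogue Prg3 had 6.80, 6.47, 8.46 and 8.11 in GMP, against 3.54, 4.33 and 4.64 in CMP (3.29 ± 0.41, 9.79-fold, adjusted p = 0.000875). Epx, eosinophil peroxidase, had 7.0, 6.81, 8.68 and 8.52 in GMP, against 4.20, 5.50 and 5.32 in CMP (2.75 ± 0.43, 6.71-fold, adjusted p = 0.00294). For all of them GMP replicates 3 and 4 stood above replicates 1 and 2. Every GMP array stood above every CMP array, as the rule for the largest changes required. Ear6, an eosinophil-associated ribonuclease, had 5.76, 5.10, 8.33 and 8.23 in GMP, and in CMP its mean lay under background (2.93, 3.64 and 2.85), so it was at least 9.65-fold higher in GMP (adjusted p = 0.00639, and 0.0516 with the 7 wild-type arrays alone). Of 6 measured eosinophil genes these 4 rose. The receptor genes of the lineage were not called: Il5ra averaged 2.79 in GMP and 2.65 in CMP, both under background, and the eotaxin receptor Ccr3 averaged 2.85 in GMP, under background, and 4.01 in CMP (adjusted p = 0.109). The list had a median difference of 3.02, and of 2.66 without CMP replicate 1, with all 4 calls kept there.

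Of 14 measured basophil and mast cell genes 5 rose, most of them known from basophils, and 9 were not called. Prss34, a serine protease of basophils known as mMCP-11, had levels of 9.49, 9.35, 10.05 and 9.63 in GMP, against 4.30, 5.75 and 6.53 in CMP, a difference of 4.11 ± 0.48 (17.2-fold, adjusted p = 0.000686). Mcpt8, the basophil protease mMCP-8, had 9.73, 10.46, 9.98 and 9.26 in GMP, against 6.45, 7.56 and 7.77 in CMP (2.60 ± 0.35, 6.05-fold, adjusted p = 0.00122). Neither gene showed any overlap between the populations, as the rule for the largest changes required. Hdc, which makes histamine, had 8.71 to 9.0 in GMP and 6.08 to 7.62 in CMP and rose by 1.79 ± 0.33 (adjusted p = 0.00819). Fcer1a, the IgE-binding receptor chain, lay under background in CMP (mean 2.56) and at 4.71 in GMP, at least 2.19-fold higher (adjusted p = 0.0126), a call lost without CMP replicate 1 (adjusted p = 0.0747). The cytokine gene Il4 was also called (0.95, adjusted p = 0.00871). Among the members not called were the IgE receptor chain Ms4a2 (0.82, adjusted p = 0.382) and the mast cell carboxypeptidase Cpa3 (0.97, adjusted p = 0.237). The mast cell proteases Cma1 (-0.01), Tpsb2 (0.01) and Tpsab1 (-0.23) were near no difference. The list median was 0.90, with 1.44 within title numbers 21986 to 21988 and 0.48 within 22003 to 22012.

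Genes of the primary granule, the protein store of early neutrophils, all had values above 0, as did 8812 of all 15781 genes. Of the 10 measured, 3 were called higher, against 1.87% of all genes. Ctsc, the protease that activates the granule serine proteases, had levels of 8.41, 8.85, 8.52 and 8.37 in GMP, against 6.95, 7.21 and 7.37 in CMP (1.36 ± 0.16, 2.57-fold, adjusted p = 0.000705), with no overlap. The protease inhibitor Serpinb1a rose by 0.89 ± 0.21 (adjusted p = 0.0272) and Srgn, the proteoglycan core of granules, by 0.55 ± 0.11 (adjusted p = 0.0156). Without CMP replicate 1 both calls were lost (adjusted p = 0.117 and 0.0665), and that of Serpinb1a also without GMP replicate 3 or 4 (adjusted p = 0.0741 and 0.0538). The best known granule enzymes were not called over all arrays. Mpo, myeloperoxidase, had 12.89, 12.93, 12.81 and 12.84 in GMP, against 12.29, 12.71 and 12.55 in CMP, a difference of 0.35 ± 0.12 (adjusted p = 0.146) near the top of the scale of the arrays. Prtn3, proteinase 3, had 11.54, 11.42, 11.78 and 11.75 in GMP, against 9.73, 11.13 and 11.19 in CMP (0.94 ± 0.27, adjusted p = 0.079). Ctsg, cathepsin G, had 11.30, 11.77, 11.65 and 11.62 in GMP, against 10.03, 11.21 and 11.08 in CMP (0.81 ± 0.23, adjusted p = 0.0698). In all 3 genes the GMP arrays lay above the CMP arrays, and CMP replicate 1 was the lowest array. With the run of title numbers as a term Prtn3 and Ctsg were called (adjusted p = 0.00593 and 0.0155) and Mpo was not (adjusted p = 0.103). Over the 27 alternatives the adjusted p of Prtn3 ran from 0.0034 to 0.253 and that of Ctsg from 0.0104 to 0.629, with a call in 5 each. The list median was 0.85, and 0.57 without CMP replicate 1.

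Of 23 measured endoplasmic reticulum genes that fold and export secreted proteins 7 rose and 16 were not called. All 23 had values above 0, as did 8812 of all 15781 genes. The disulphide isomerase Pdia4 had levels of 9.46 to 9.58 in GMP and 8.08 to 8.94 in CMP and rose by 0.93 ± 0.18 (adjusted p = 0.0112). The signal peptidase subunit Spcs2 rose by 0.80 ± 0.16, the chaperone partner Sdf2l1 by 0.77 ± 0.18 and the oligosaccharyltransferase subunit Rpn1 by 0.70 ± 0.16. Xbp1, a transcription factor of the secretory programme, and the translocon-associated Ssr1 and Ssr2 rose by 0.50 to 0.65. These differences were small, and the calls depended on the arrays. Without CMP replicate 1 the list had 1 call, with the 7 wild-type arrays alone or within title numbers 22003 to 22012 it had 0, and the list median was 0.39 without CMP replicate 1 and 0.43 within title numbers 22003 to 22012, against 0.50 over all arrays.

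**Figure D2:**
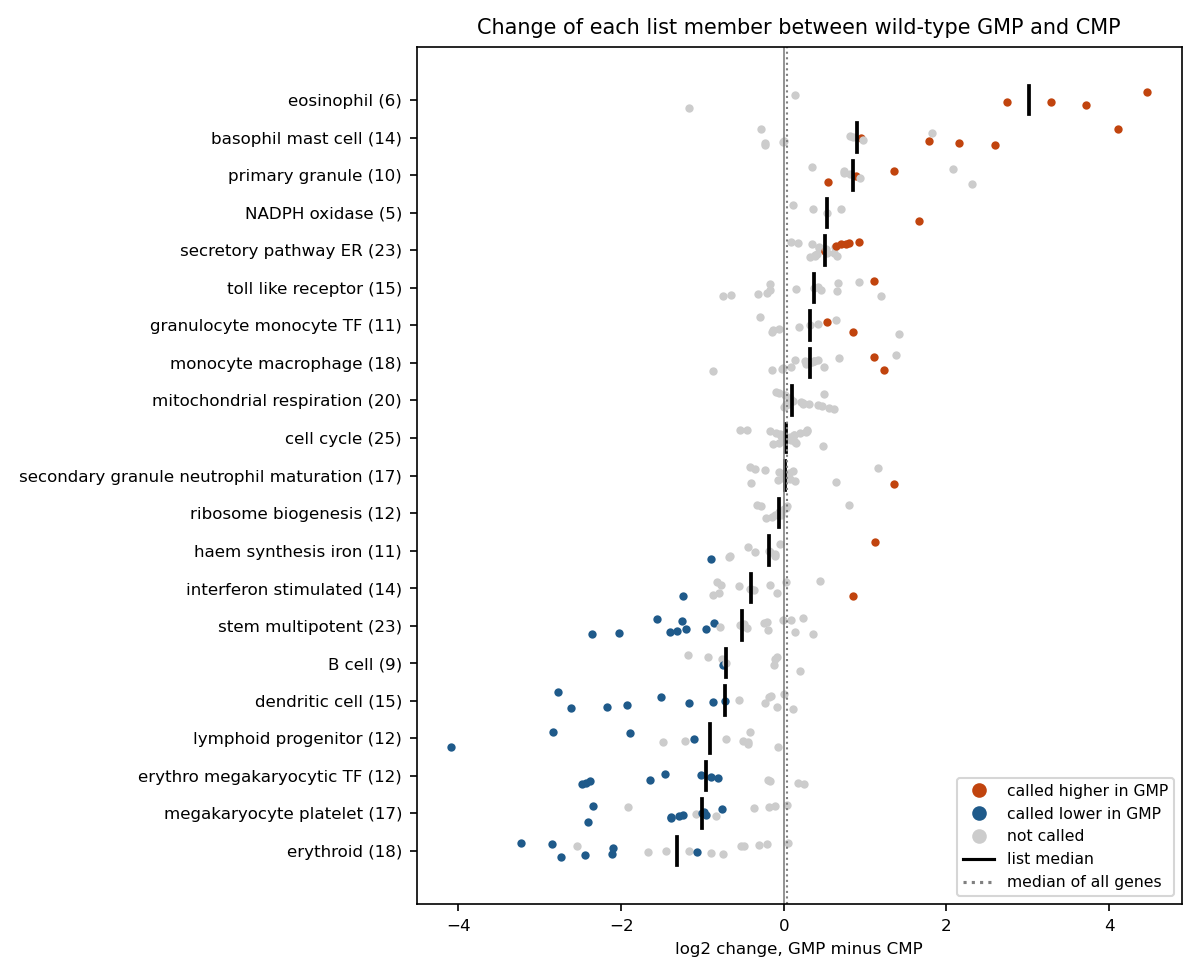
Difference in log2 level between wild-type GMP and CMP (x axis) for each measured member of 21 gene lists, with the number of members in parentheses, black bars for list medians and colours for genes called higher, lower or not called. The medians run from 3.02 in the eosinophil list to -1.31 in the erythroid list, and the median of all genes is 0.04.

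Later granule and effector genes were mostly not called. Of 17 secondary granule and neutrophil maturation genes 1 was called, Anxa1, a regulator of inflammation, which rose by 1.35 ± 0.29 (adjusted p = 0.0163, and 0.0919 without CMP replicate 1). Of all genes 1.87% were called higher. The secondary granule genes Camp (9.83 in GMP and 9.90 in CMP) and Ngp (9.61 in GMP and 9.54 in CMP) did not pass, with differences of -0.07 and 0.06, and the list median was 0.02. Cybb, the catalytic chain of the phagocyte NADPH oxidase, had 8.77, 7.77, 8.34 and 8.49 in GMP, against 6.61, 6.57 and 6.87 in CMP, and rose by 1.66 ± 0.40 (3.16-fold, adjusted p = 0.0344). The arrays of Cybb did not overlap, yet 6 of 13 fits without 1 array lost the call (adjusted p from 0.00286 to 0.122). It was the 1 called gene of 5 oxidase genes. All 5 had values above 0, as did 8812 of all 15781 genes.

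Of 18 monocyte and macrophage genes 2 rose, against 1.87% of all genes. Adgre1, the macrophage antigen F4/80, had 5.11, 5.12, 5.76 and 5.15 in GMP, against 4.02, 4.28 and 4.24 in CMP (1.11 ± 0.17, adjusted p = 0.00271), without overlap. Ly6c2, a surface antigen of monocytes and their progenitors, rose by 1.23 ± 0.29 (adjusted p = 0.0283), and 4 fits without 1 array lost it (CMP replicate 1 or 3, GMP replicate 3 or 4; adjusted p up to 0.143). Csf1r, the M-CSF receptor, was not called, with 8.68, 8.62, 8.29 and 8.31 in GMP, against 8.29, 7.89 and 8.21 in CMP (0.34 ± 0.17, adjusted p = 0.343). Among 15 genes of Toll-like receptor signalling, Tlr4, the receptor for lipopolysaccharide, was the called one, against 1.87% of all genes called higher. It had 6.44 to 6.82 in GMP and 5.40 to 5.59 in CMP and rose by 1.11 ± 0.13 (2.15-fold, adjusted p = 0.000705). Aoah, an enzyme that detoxifies lipopolysaccharide, had 6.98, 7.47, 7.49 and 7.53 in GMP, against 4.99, 5.32 and 5.33 in CMP, and rose by 2.16 ± 0.21 (4.46-fold, adjusted p = 0.000229). The remaining genes among the 12 largest rises were Papss2, which makes the sulphate donor for proteoglycans (2.23 ± 0.30), Olr1, a scavenger receptor for oxidised lipoprotein (2.20 ± 0.46), and Gda, guanine deaminase (2.11 ± 0.42). Of these, Gda lost its call without CMP replicate 1 (adjusted p = 0.0508).

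Cytokine receptor genes moved in both directions. Csf2rb, the common signalling chain of the receptors for GM-CSF, interleukin-3 and interleukin-5, had 8.90, 8.50, 8.80 and 8.81 in GMP, against 7.94, 7.98 and 7.71 in CMP. It rose by 0.88 ± 0.13 (1.84-fold, adjusted p = 0.00209), and the groups lay apart. Csf3r, the receptor for G-CSF, had 8.69 to 8.83 in GMP and 7.91 to 8.13 in CMP. Although these arrays did not overlap either, the difference of 0.69 ± 0.23 was not called (adjusted p = 0.116). It was called in 3 of 27 alternatives, among them the 7 wild-type arrays alone (adjusted p = 0.0405, with 0.0177 to 0.451 over all). Il17ra, a chain of the interleukin-17 receptor, fell by 1.06 ± 0.21 (adjusted p = 0.0111). Flt3, the receptor of multipotent and lymphoid progenitors, had 6.18, 5.47, 5.13 and 5.45 in GMP, against 8.55, 8.20 and 8.43 in CMP. Its fall by 2.83 ± 0.21 (7.13-fold lower, adjusted p = 2.75e-05) had the smallest adjusted p of the named genes. Epor, the erythropoietin receptor, had 4.83, 5.26, 4.42 and 4.80 in GMP, against 7.48, 6.40 and 6.13 in CMP, and fell by 1.84 ± 0.33 (3.59-fold lower, adjusted p = 0.00577).

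Of 12 transcription factors of the erythroid and megakaryocytic lineages 8 fell and none rose, with a list median of -0.95, and 7 were called lower without CMP replicate 1. Gata1, the master regulator of red cell and platelet formation, had 5.42, 5.05, 5.01 and 4.91 in GMP, against 8.03, 7.64 and 6.77 in CMP. It fell by 2.38 ± 0.24 (5.21-fold lower, adjusted p = 0.000229), with a wide gap between the groups. Zfpm1, which encodes the GATA1 partner FOG1, had 5.83, 6.23, 5.69 and 5.70 in GMP, against 7.77, 7.43 and 7.34 in CMP (-1.65 ± 0.16, 3.14-fold lower). Klf1, the erythroid activator of globin genes, had 4.13, 5.81, 4.80 and 4.37 in GMP, against 7.97, 6.91 and 6.74 in CMP (-2.43 ± 0.40, 5.38-fold lower, adjusted p = 0.00379). Gfi1b, a repressor needed by both lineages, had 6.19, 5.87, 5.45 and 5.66 in GMP, against 9.33, 7.68 and 7.81 in CMP (-2.48 ± 0.33, 5.59-fold lower, adjusted p = 0.00116). None of these 4 genes had overlapping arrays, and each was called in all 27 alternative fits other than the one with a minimum fold. Gata2 fell by 1.45 ± 0.24 and the partner factors Cbfa2t3 and Ldb1 by 1.01 and 0.89. Tal1 fell by 0.81 ± 0.17 (adjusted p = 0.0158), and without CMP replicate 1 or 2 that call was lost (adjusted p = 0.0835 and 0.0576). Nfe2 (-0.20), Lmo2 (-0.17), Lyl1 (0.17) and Fli1 (0.25) were not called.

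The factors of the granulocyte and monocyte programme differed less. Of 11 measured, 2 were called higher, none lower, and the median difference was 0.33. Spi1, which encodes PU.1, had 9.40, 9.62, 9.48 and 9.35 in GMP, against 8.73, 9.01 and 9.06 in CMP, a rise of 0.53 ± 0.13 (1.44-fold, adjusted p = 0.0397). Gfi1, a repressor that favours granulocytes, had 6.87, 6.48, 6.99 and 6.97 in GMP, against 5.35, 6.30 and 6.26 in CMP (0.86 ± 0.21, 1.81-fold, adjusted p = 0.0351). The groups were apart in both genes, but both calls lay close to the threshold: 11 and 9 of the 13 fits without 1 array lost them (adjusted p up to 0.17 for Spi1 and up to 0.105 for Gfi1). Cebpa, the C/EBP factor needed to form GMP, had 7.93, 7.73, 7.81 and 7.65 in GMP, against 7.36, 7.55 and 7.45 in CMP. Its arrays did not overlap, but its difference of 0.33 ± 0.13 was not called (adjusted p = 0.232). Cebpe, a factor of granulocyte maturation, had 7.72, 8.36, 8.73 and 8.39 in GMP, against 5.03, 7.80 and 7.83 in CMP (1.41 ± 0.60, adjusted p = 0.25). Here CMP replicate 1 alone lay far below, and within the title numbers 22003 to 22012 the difference was 0.75. Irf8, a factor of monocytes and dendritic cells, had 9.10, 8.39, 9.27 and 9.37 in GMP, against 8.82, 9.29 and 9.38 in CMP, with overlapping arrays and no call.

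**Figure D3:**
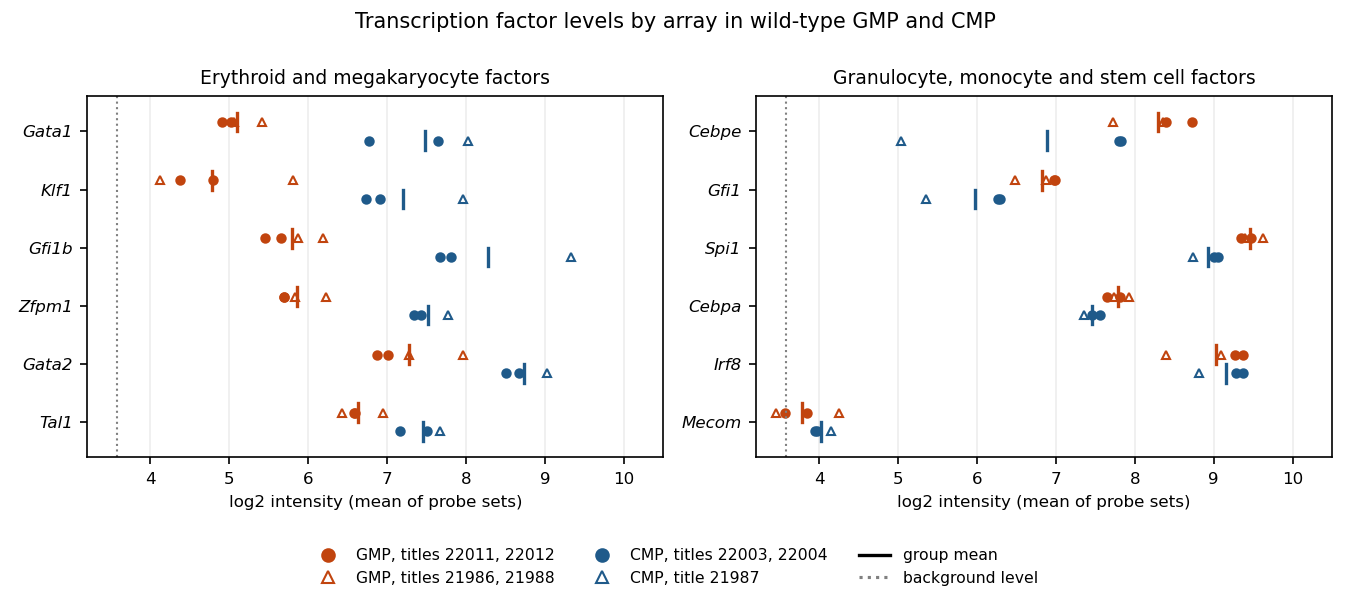
Levels (log2 intensity, x axis) of 12 transcription factor genes in wild-type GMP and CMP, 1 symbol per array (triangles for titles 21986 to 21988, circles for 22003 to 22012), with bars for group means. The erythroid and megakaryocyte factors on the left lie apart, such as Gata1 at 4.91 to 5.42 in GMP and 6.77 to 8.03 in CMP. On the right Cebpe, Irf8 and Mecom overlap, and Cebpa is apart by a narrow gap (7.65 to 7.93 in GMP and 7.36 to 7.55 in CMP).

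Windows of 250 bases before the RefSeq start sites (build GRCm38.p6) were searched on both strands for letters these factors are known to favour: TTGCNNAA for C/EBP factors, AGATAA or TGATAA for GATA factors and GAGGAAGT for PU.1. Of the genes tested 12609 had such a window and 3172 had none, and genes with several starts gave several windows. TTGCNNAA stood in 14.1% of 284 windows of genes called higher, in 8.65% of 416 windows of genes called lower and in 8.61% of all 15757 windows. AGATAA or TGATAA stood in 12.7% of windows of genes called higher, in 15.4% of those called lower and in 12.9% of all. GAGGAAGT stood in 4.23% of windows of genes called higher, in 2.16% of those called lower and in 2.18% of all. These shares are descriptions, with no test, and a match is not a binding site. Named genes also went the other way. AGATAA or TGATAA stood in windows of Prss34, Prg3, Cybb, Olr1, Papss2 and Fcer1a, all called higher. TTGCNNAA stood in windows of Il7r, Pf4, Aqp9 and Tal1, and GAGGAAGT in those of Eng and Pf4, all called lower. The windows of Gata1, Zfpm1 and Aqp1, called lower, held no match. As examples, chosen after the matches were known, the windows of Aoah and Fcgr3 (called higher) and of Klf1 and Epor (called lower) are printed 5′ to 3′ on the strand of the gene. Capitals mark the matched letters, which begin 189 bases before the start in Aoah (chr13:20793863-20794112, plus strand), 28 in Fcgr3 (chr1:171059404-171059653, minus strand), 80 in Klf1 (chr8:84901732-84901981, plus strand) and 54 in Epor (chr9:21963577-21963826, minus strand). In Fcgr3, Klf1 and Epor the match lies on the opposite strand, so the capitals show its complement.
Aoah: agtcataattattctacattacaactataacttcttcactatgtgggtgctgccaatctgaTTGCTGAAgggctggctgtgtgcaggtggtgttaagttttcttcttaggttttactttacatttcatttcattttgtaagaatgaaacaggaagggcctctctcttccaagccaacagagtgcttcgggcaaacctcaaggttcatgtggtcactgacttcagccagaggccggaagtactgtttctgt
Fcgr3: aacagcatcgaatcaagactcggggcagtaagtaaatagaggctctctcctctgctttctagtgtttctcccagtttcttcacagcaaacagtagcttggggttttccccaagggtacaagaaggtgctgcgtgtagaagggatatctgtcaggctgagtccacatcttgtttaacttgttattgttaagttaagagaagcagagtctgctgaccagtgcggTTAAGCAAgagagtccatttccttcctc
Klf1: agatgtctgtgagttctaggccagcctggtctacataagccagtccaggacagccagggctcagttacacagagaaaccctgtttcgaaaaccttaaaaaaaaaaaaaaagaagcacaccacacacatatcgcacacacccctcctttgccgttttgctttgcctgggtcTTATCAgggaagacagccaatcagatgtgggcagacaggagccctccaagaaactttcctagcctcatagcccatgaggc
Epor: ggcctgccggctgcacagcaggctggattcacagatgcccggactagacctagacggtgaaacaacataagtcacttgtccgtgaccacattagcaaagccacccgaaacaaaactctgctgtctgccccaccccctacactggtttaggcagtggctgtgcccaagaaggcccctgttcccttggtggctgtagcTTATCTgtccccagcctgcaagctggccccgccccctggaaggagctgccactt

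Of 18 measured erythroid genes 7 fell, none rose and 11 were not called. The water channel Aqp1 had 5.70, 5.55, 4.46 and 4.47 in GMP, against 9.16, 8.12 and 7.56 in CMP (-3.23 ± 0.38, 9.41-fold lower, adjusted p = 0.000686). Car2, a carbonic anhydrase of red cells, had 6.56, 7.68, 6.25 and 6.42 in GMP, against 10.65, 9.10 and 8.67 in CMP (-2.74 ± 0.41, 6.69-fold lower, adjusted p = 0.00223). Ermap, an erythroblast membrane protein, had 4.73, 4.74, 4.67 and 4.79 in GMP, against 8.98, 7.29 and 6.47 in CMP (-2.85 ± 0.42, 7.22-fold lower, adjusted p = 0.00204). CMP replicate 1 was the highest array in each of them. The arrays of GMP lay below all CMP arrays, as the rule for the largest changes required. The blood group gene Kel fell by 2.45 ± 0.45 (adjusted p = 0.00773), and Blvrb, Hemgn and Icam4 were the other called members (-2.11 to -1.07). The mean level of the list was 5.09, 5.26, 4.89 and 5.01 in GMP replicates 1 to 4, against 7.54, 6.17 and 5.90 in CMP replicates 1 to 3. Its median difference was -1.31 over all arrays, -2.51 within title numbers 21986 to 21988, -0.78 within 22003 to 22012 and -0.64 without CMP replicate 1, where 6 members were called lower. CMP replicate 1 was also the array with the highest immediate early genes (8.45), whose part in these values was not tested. The urea transporter Slc14a1, known from red cells, fell by 3.18 ± 0.57, and was among the 12 largest falls.

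Of 11 genes of haem synthesis and iron handling 1 rose and 1 fell. Alas1, the rate-limiting enzyme in cells other than red cells, rose by 1.12 ± 0.23 (10.36, 10.20, 10.70 and 10.58 in GMP, against 8.60, 9.64 and 9.76 in CMP; adjusted p = 0.0148). Alad, the next enzyme of the pathway, fell by 0.90 ± 0.18 (7.14, 6.87, 6.98 and 6.99 in GMP, against 8.37, 7.93 and 7.40 in CMP; adjusted p = 0.0119). Neither pair of groups overlapped, but with the 7 wild-type arrays alone both calls were lost (adjusted p = 0.0956 for Alas1 and 0.0915 for Alad). The call of Alas1 was also lost with the median of its probe sets (adjusted p = 0.0692), and that of Alad within title numbers 22003 to 22012 (adjusted p = 0.0807). The erythroid enzyme Alas2 was not called (-0.67, adjusted p = 0.382).

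Of 17 megakaryocyte and platelet genes 10 fell and none rose, with a median of -1.0. Pf4, platelet factor 4, had 7.68, 8.68, 6.39 and 6.16 in GMP, against 8.97, 10.14 and 9.62 in CMP (-2.35 ± 0.52, 5.1-fold lower, adjusted p = 0.0215). The groups did not overlap, but GMP replicates 1 and 2 lay above replicates 3 and 4. The difference was -0.80 within title numbers 21986 to 21988 and -3.60 within 22003 to 22012, and 4 fits without 1 array lost the call (CMP replicate 2 or 3, GMP replicate 3 or 4; adjusted p up to 0.0833). Gp5, a chain of the von Willebrand factor receptor, fell by 2.41 ± 0.45, the signalling protein Plek by 1.38 ± 0.28 and the integrin chain Itga2b by 1.24 ± 0.19. Plek lost its call without CMP replicate 1 (adjusted p = 0.0705). The secretion protein Rab27b lay under background in GMP and was at least 1.75-fold lower there (adjusted p = 0.0455). 8 of the 13 fits that left out an array lost its call (adjusted p up to 0.194). Gp9, Treml1, F2rl2, Cd9 and Vwf were the other called members (-1.29 to -0.76). The list had 6 genes called lower without CMP replicate 1, and 2 with the 7 wild-type arrays alone.

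Of 12 lymphoid progenitor genes 4 fell, against 2.43% of all genes called lower. Of 9 B cell genes 1 fell, as did 1 of 13 T and NK cell genes, single calls that say little about those lists. Dntt, the template-independent DNA polymerase of early lymphocytes, had 4.91, 4.64, 3.94 and 4.23 in GMP, against 9.32, 8.08 and 8.15 in CMP. Its fall by 4.09 ± 0.41 (17-fold lower, adjusted p = 0.000229) was the largest of the falls named by rule, and no array of GMP came near one of CMP. Satb1, a chromatin organiser of lymphoid cells, had 7.18 to 7.58 in GMP and 8.49 to 8.58 in CMP and fell by 1.11 ± 0.16. Il7r, the interleukin-7 receptor, had 4.33, 4.03, 4.04 and 3.56 in GMP, against 7.30, 5.20 and 5.16 in CMP (adjusted p = 0.0437). In Il7r CMP replicate 1 stood above the other CMP arrays, and 9 of 13 fits without 1 array lost the call (adjusted p from 0.0276 to 0.157). Flt3 was the other called member, and all 12 had values below 0 (median -0.91), as did 6969 of all 15781 genes. Of the B cell genes Cd22, a B cell lectin, fell (-0.75 ± 0.17), with 6 fits without 1 array losing it (adjusted p up to 0.129). Of the T and NK cell genes Klrd1, an NK receptor, fell and was at least 2.7-fold lower (adjusted p = 0.0173, and 0.0653 without CMP replicate 3).

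Of 23 genes of stem and multipotent progenitors 9 fell and none rose, and the median was -0.52. Meis1, a homeobox partner of HOX proteins in stem cells, had 6.11, 6.35, 5.71 and 5.92 in GMP, against 8.04, 7.93 and 8.18 in CMP (-2.02 ± 0.31, 4.07-fold lower, adjusted p = 0.00254). Angpt1, the ligand of the receptor Tek, had 6.04, 6.43, 5.33 and 4.37 in GMP, against 8.01, 8.11 and 7.60 in CMP (-2.36 ± 0.40, 5.14-fold lower, adjusted p = 0.0043). The groups lay apart in both. Pdzk1ip1, a membrane protein of stem cells, fell by 1.40 ± 0.18, and Mycn, Txnip, Hlf and Hoxa9 were called too (-1.31 to -0.85), as was Tek, under background in GMP and at least 1.59-fold lower there. Hoxa9 fell by 0.85 ± 0.19 (adjusted p = 0.0218), with calls lost without CMP replicate 1 or 2 or GMP replicate 1 (adjusted p up to 0.0951). With Meis1, it was 1 of 2 called genes among 19 HOX genes and cofactors. Mecom, a stem cell factor, had 3.78 ± 0.36 in GMP and 4.02 ± 0.11 in CMP (SD) and was not called. Without CMP replicate 1, 6 of the stem list were called lower.

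Of 15 dendritic cell genes 8 fell and none rose, with a median of -0.72. Clec9a, a receptor of cross-presenting dendritic cells, had 3.92, 3.31, 3.82 and 4.0 in GMP, against 6.53, 5.83 and 6.80 in CMP (-2.62 ± 0.35, 6.16-fold lower, adjusted p = 0.00116). Cd74, the chaperone of MHC class II, had 5.69, 5.64, 5.35 and 5.20 in GMP, against 8.38, 7.18 and 7.35 in CMP (-2.17 ± 0.27, 4.49-fold lower, adjusted p = 0.000966). The class II chain gene H2-Eb1 had 5.33 to 5.61 in GMP and 6.97 to 8.01 in CMP and fell by 1.92 ± 0.26. All 3 genes were low in each GMP array, with no overlap, which the rule for the largest changes required of Clec9a. H2-Aa, another class II chain, spread more widely, with 6.59, 3.63, 5.80 and 4.67 in GMP, against 8.45, 7.83 and 7.58 in CMP (-2.78 ± 0.53, adjusted p = 0.00891). Its call was lost without CMP replicate 1 (adjusted p = 0.0527). Siglech, H2-Ab1, Tcf4 and Itgax were the other called members (-1.52 to -0.72), and the transcription factors Batf3 (-0.08) and Zbtb46 (-0.16) were not called. Without CMP replicate 1 the list had 4 genes called lower. A class II regulator, Ciita, was not called either (-0.23, adjusted p = 0.615).

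Other large falls were of genes outside these groups. Vamp5, a membrane fusion protein, had 6.34, 6.79, 6.71 and 6.18 in GMP, against 9.17, 9.34 and 8.72 in CMP (-2.57 ± 0.24, 5.94-fold lower, adjusted p = 0.000153). Ces2g, a carboxylesterase, fell by 3.28 ± 0.44 and Aqp9, a channel for water and glycerol, by 2.71 ± 0.39. S1pr1, the sphingosine phosphate receptor that guides cells out of tissues, had 4.72 to 5.51 in GMP and 6.55 to 7.57 in CMP. It fell by 1.86 ± 0.24 (3.63-fold lower, adjusted p = 0.0011). S1pr1 was the 1 called gene of 15 chemokine receptor and trafficking genes, against 2.43% of all genes called lower. All 4 genes had arrays that did not overlap, which the rule for the largest changes required of all but S1pr1. Cd59a, an inhibitor of complement, lay under background in GMP and was at least 3.11-fold lower there, with a call that did not survive leaving out any of 4 arrays (CMP replicate 1, GMP replicate 1, 3 or 4; adjusted p up to 0.13).

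Housekeeping programmes showed no called gene. None was called of 25 cell cycle genes (median 0.03), 6 inhibitors of cyclin-dependent kinases (-0.13), 12 ribosome biogenesis genes (-0.06), 7 ribosomal protein genes (-0.06) or 20 genes of mitochondrial respiration (0.10) in limma. At an unadjusted p below 0.05 these lists held 3, 1, 2, 0 and 5 genes in that order. A missing call in this design does not show that levels were equal. Among 8 genes of DNA methylation, Dnmt3b, a de novo methyltransferase, fell by 0.60 ± 0.13 (6.13 to 6.51 in GMP and 6.71 to 7.03 in CMP; adjusted p = 0.0165). That call was lost without CMP replicate 2 or 3 (adjusted p = 0.0599 and 0.0662). Dnmt3a, its paralogue, had 7.30 to 7.59 in GMP and 7.24 to 7.65 in CMP and was not called. Of 14 interferon-stimulated genes the GTPase Gbp3 rose by 0.86 ± 0.14 and Rtp4 fell by 1.24 ± 0.26, and without CMP replicate 1 Rtp4 was not called (adjusted p = 0.0936). Of 21 immediate early and heat shock genes 1 was called, against 4.3% of all genes. This was the chaperone gene Hsp90aa1, which was read by 1 probe set near background. Its mean was 4.04 in GMP and 2.58 in CMP, under background, so it was at least 1.38-fold higher in GMP. The call was lost in 5 fits without 1 array (adjusted p up to 0.117). The median of that list was -0.31, and 0.38 without CMP replicate 1.

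**Figure D4:**
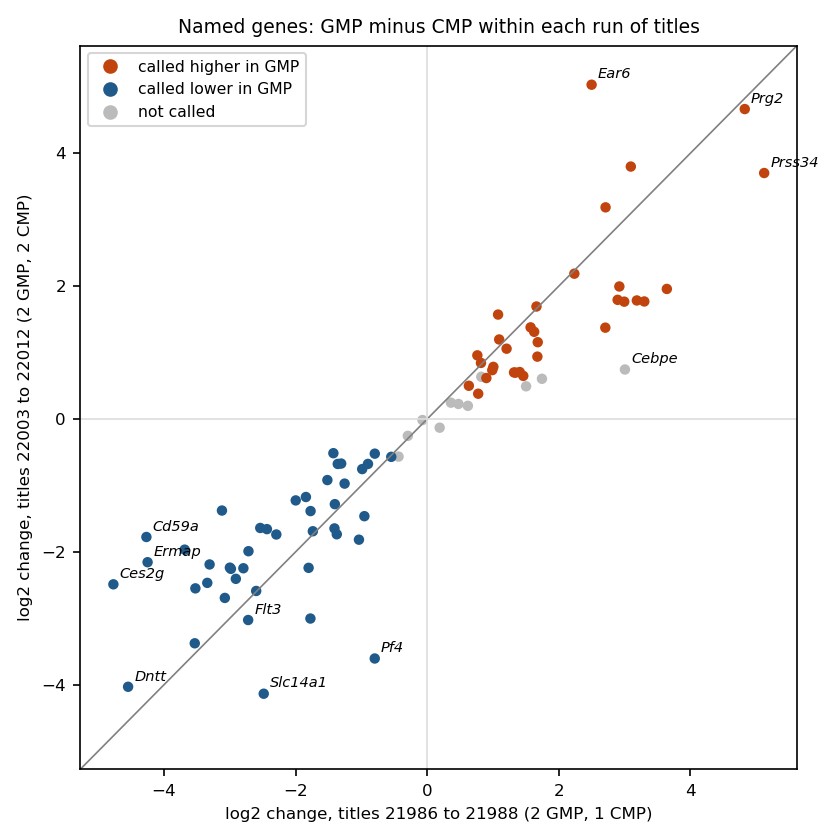
Difference in log2 level, GMP minus CMP, of the named genes within title numbers 21986 to 21988 (x axis, 2 GMP arrays and 1 CMP array) and within 22003 to 22012 (y axis, 2 GMP and 2 CMP arrays), with the line of equal values. Ces2g (-4.77 and -2.49) and Ermap (-4.25 and -2.16) moved further within 21986 to 21988, Ear6 (2.50 and 5.03) and Pf4 (-0.80 and -3.60) within 22003 to 22012.

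The same step in Dnmt3a-/- progenitors was compared gene by gene. Dnmt3a itself had levels of 6.06 to 6.22 in Dnmt3a-/- GMP and 6.37 to 6.49 in Dnmt3a-/- CMP, below all wild-type arrays. These levels still lay above the background of 3.58 and the middle gene at 5.37. A mean over 31 probe sets does not show whether single exons were absent. In wild type 678 genes were called (4.3%), and in Dnmt3a-/- mice 1590 (10.1%), of which 868 were higher in GMP (5.5%) and 722 lower (4.58%). Of these, 542 were called in both, 79.9% of the wild-type calls and 34.1% of the Dnmt3a-/- calls, and 541 of them had the same sign. Prg2 rose by 4.47 in wild type and by 5.91 in Dnmt3a-/- mice, Prss34 by 4.11 and 4.54, and Dntt fell by 4.09 and 4.15. Gata1 fell by 2.38 in wild type and by 1.90 in Dnmt3a-/- mice, and Klf1 by 2.43 and 2.45.

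The difference between both steps was tested in the same fit, and no gene passed (0 of 15781, 0% called; 1083 with an unadjusted p below 0.05, lowest adjusted p = 0.0856). Among the named genes the largest gaps were those of Fcer1a, Ear6, Prg3 and Cebpe. Fcer1a differed by 2.15 in wild type and by 4.66 in Dnmt3a-/- mice, Ear6 by 3.71 and 5.93, Prg3 by 3.29 and 5.32 and Cebpe by 1.41 and 3.34, with adjusted p of 0.369 to 0.711 for the difference. Fcer1a and Ear6 lay under background in wild-type CMP. In Dnmt3a-/- CMP Fcer1a, Ear6 and Prg3 lay under it (3.53, 2.70 and 3.40). The sizes of the differences that start from such levels are therefore uncertain. The smallest p were those of Alas1, Mpo, Gfi1, Ctsg and Prtn3. Mpo differed by 0.35 ± 0.12 in wild type and by 1.3 in Dnmt3a-/- mice, Prtn3 by 0.94 and 2.72, Ctsg by 0.81 and 2.31, Gfi1 by 0.86 and 2.40 and Alas1 by 1.12 and 2.98. Their adjusted p for the difference lay between 0.182 and 0.261. Irf8 differed by -0.13 in wild type and by -1.24 in Dnmt3a-/- mice, and Mecom by -0.24 and -1.25 (adjusted p = 0.517 and 0.359). The outcome depended on the arrays used: 48 genes passed with array weights, 23 without CMP replicate 1 of the wild type, 10 with wild-type title numbers 22003 to 22012 alone and 9 with the run of title numbers as a term. Genotype and run of title numbers (22298 to 22303 for all Dnmt3a-/- arrays) cannot be told apart, and the Y-linked genes were low in all 6 Dnmt3a-/- arrays.

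**Figure D5:**
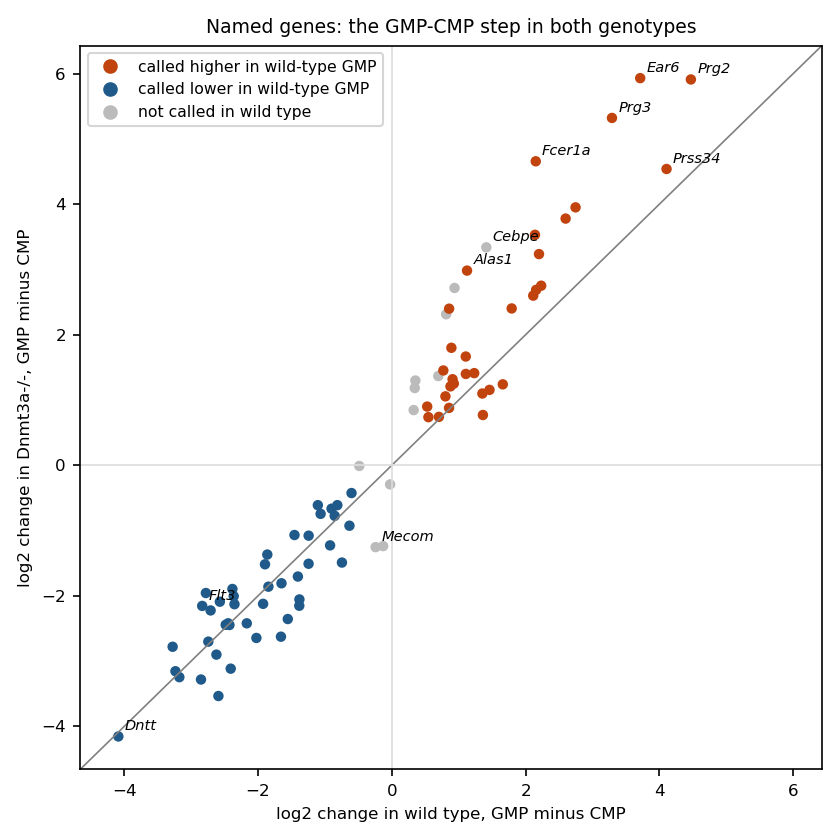
Difference in log2 level, GMP minus CMP, of the named genes in wild type (x axis) and in Dnmt3a-/- mice (y axis), with the line of equal values and colours for the wild-type call. Prg2, Prg3, Ear6, Fcer1a and Alas1 lie above the line, Dntt lies on it, and no single difference between genotypes passed the test over all genes.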

How the data were processed

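RNA levels were read on mouse exon arrays from Affymetrix, using 20 ng amplified with the WT-Ovation kit per the labels' protocols. The deposited values are probe set intensities on a linear scale, summarised for each array by the authors. RMA, Partek and the build mm9 are named in the submitters' processing notes, without role or version. Array medians lay between 53.0 and 56.8, the number of arrays limits the precision, and no depth applies.

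From these intensities log2 levels were computed and averaged over the 179496 probe sets with 1 gene symbol, out of 194293 (1328 carried several symbols and 13469 none), giving 15781 genes (median 9 probe sets each). Through RefSeq 2039 symbols were updated. No further normalization was applied. limma 3.58.1 in R 4.3.3 fitted 4 groups over 13 arrays (wild-type and Dnmt3a-/- GMP and CMP), with Benjamini-Hochberg adjustment over all 15781 genes. Every adjusted p in the text comes from such a moderated limma fit. Where a group's mean lay under the background of 3.58, the fold is a bound against that background.

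Genes were named by rule: the 12 largest called changes in each direction (arrays not overlapping, the higher group above background, at least 3 probe sets, no clone name), up to 4 called members of each list plus any called against its majority, a fixed set of key genes, and 2 Y-linked genes. Other list members given with values, and the promoter examples, were chosen after their values were seen. The comparison and the lists were chosen with earlier results of these data known. Alternatives changed the normalization, the summary of probe sets, filters, the arrays used and the title run, and left out each array in turn.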

Additional observations from a re-analysis of the deposited data

Results flagged for a closer look

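In 7 of 121 groups of 4 GMP arrays tested, 1 array lay far from the other 3 by Dixon's criterion, which chance alone meets in about 1 of 20 groups. Adgre1, the macrophage antigen F4/80, stood at 5.76 in GMP replicate 3 and at 5.11 to 5.15 in the other GMP arrays. Aoah stood at 6.98 in GMP replicate 1 and at 7.47 to 7.53 in the others. Papss2 stood at 7.31 in GMP replicate 2 and at 8.14 to 8.21 in the others. The mean level of the NADPH oxidase genes was 8.82 in GMP replicate 2 and 9.36 to 9.47 in the others. The Y-linked genes Eif2s3y (3.03) and Kdm5d (3.48) and the mean of the Y-linked list (3.25) were low in GMP replicate 4, and in the other GMP arrays the list mean was 6.84 to 7.04.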

How the results depend on the processing

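All alternatives kept the sign of every gene among the 678 called that they tested. The count of called genes was 380 when probe sets were summarised by their median, 258 with the 7 wild-type arrays alone, 53 with a minimum of 1.5-fold, 379 with title numbers 22003 to 22012 alone and 1049 with the run of title numbers as a term. Leaving out 1 array gave 354 (without CMP replicate 1) to 710 called genes. Of the 75 called named genes 52 were also called without CMP replicate 1, 22 with a minimum of 1.5-fold and 30 in all 27 other alternatives. Calls of named genes were lost in 33 cases with the 7 wild-type arrays alone, 26 with title numbers 22003 to 22012, 24 with the probe set median, 22 with title numbers 21986 to 21988, 12 with the brighter probe sets of each gene alone and at most 14 without any array other than CMP replicate 1. 5 named genes that were not called gained a call somewhere (Cebpe, Csf3r, Ctsg, Mpo and Prtn3). For the difference between genotypes, 48 genes passed with array weights, 10 with title numbers 22003 to 22012, 9 with the run as a term, and 0 to 23 without 1 array (23 without CMP replicate 1, 1 without CMP replicate 3 and 1 without GMP replicate 2 of the wild type). The cause of these shifts was not tested. No paired analysis was possible because the titles of these arrays carry no replicate number shared by GMP and CMP, and the labels do not say whether neighbouring title numbers mark pairs. The run of title numbers, entered as a term above, is the nearest block.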

Other observations

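4 gene families were looked at after their values had been seen, so no test over a family is given, and the adjusted p-values are those of single genes over all genes. The GTPase genes of the Gimap family, known from lymphocytes, had 8 measured members, all with values below 0 and a median difference of -0.60. Of all 15781 genes 6969 had values below 0. Gimap3 and Gimap4 lay under background in both populations. Gimap5, Gimap7 and Gimap8 lay under it in GMP, with bounds of 1.055-fold, 1.36-fold and 1.03-fold. The shared sign and the median thus rest in part on values near background. Gimap6 averaged 3.58 ± 0.49 in GMP and 6.00 ± 0.33 in CMP (SD, n = 4 and 3) and, with the GMP mean just under background, was at least 5.36-fold lower in GMP (limma, adjusted p = 0.000705). Gimap9 averaged 4.85 ± 0.69 in GMP and 6.33 ± 0.41 in CMP and fell by 1.48 ± 0.32 (limma, adjusted p = 0.0176). Of 4 fatty acid desaturase genes 3 fell (Fads1, Fads2 and Fads3), with a family median of -0.98. Of 11 aquaporin genes 3 fell, Aqp1, Aqp9 and Aqp11 (-1.49), and the family median was 0.12. Of 12 annexin genes 3 rose, Anxa1, Anxa3 and Anxa5 (0.72), with a family median of 0.18.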
